A study of Homo sapiens with 12 samples.

Results

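Reads antisense to LTR elements are the RNA fragments that map to a long terminal repeat (LTR) retrotransposon on the strand opposite to the element. They were taken from all 12 element count tables as the rows whose read strand differs from the strand of the element and whose repeat class is LTR with no question mark. Across the libraries, 256504 elements carried such reads, of 3015442 element and orientation pairs with reads of any kind, and 243972 LTR elements carried reads on their own strand. The reads come from PAR-CLIP, in which cells are fed the photoreactive nucleoside 4-thiouridine, RNA is crosslinked to protein by ultraviolet light, and the RNA bound to a tagged protein is immunoprecipitated and sequenced. All 12 libraries are from A375, an established human melanoma cell line, transiently transfected with a pcDNA3.2 vector encoding a V5-tagged protein, labelled from 24 hours after transfection and immunoprecipitated with anti-V5. The 4 groups of 3 libraries differ in that protein. Clover, a fluorescent protein, served as control. Z18fl stands for the full-length ZC3H18 protein and Z18trunc for a truncated form of it, and in Z18truncZnFmut the truncated form also carries mutations of aromatic residues in the zinc finger. The proteins were overexpressed from the vector in cells that keep their own ZC3H18, and the immunoprecipitations were done in triplicate, so p-values measure the spread between these libraries, which may be technical. The tables hold repeats and no genes, so melanoma markers and ZC3H18 were not checked.

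ZC3H18 is a CCCH zinc-finger protein of the nucleus that links capped RNA to the nuclear exosome, the RNA-degrading machine that clears intronic, promoter-upstream and other short-lived transcripts. LTR elements are the remains of endogenous retroviruses. Each provirus had an internal part with viral genes between flanking LTRs, and many now survive as a solo LTR that can still hold a promoter. RNA on the strand of the element is the orientation of the retroviral transcript. RNA on the other strand can come from a host gene that runs through the element the opposite way, or from transcription that starts in or near the LTR and runs backwards. LTR elements inside genes more often lie opposite to the gene than along it, so a strand-aware count separates both kinds of read. The human families are ERV1, ERVK and ERVL, with ERVL-MaLR as the old and numerous non-autonomous relatives of ERVL, and Gypsy-like fragments that are older still.

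The loci below are among those whose differences between the groups are described further on, chosen outside annotated untranslated regions. They are shown as the middle 200 bases of the element on the strand of the read, read from hg38, 5′ to 3′, with runs of 4 or more T in capitals, since 4-thiouridine crosslinks at U. Reads on the MLT1F1, LTR14B, MLT1F and MER52C elements rose with Z18fl, and reads on the LTR86C element fell with all 3 ZC3H18 constructs.
MLT1F1, chr10:102159628-102159827, plus strand: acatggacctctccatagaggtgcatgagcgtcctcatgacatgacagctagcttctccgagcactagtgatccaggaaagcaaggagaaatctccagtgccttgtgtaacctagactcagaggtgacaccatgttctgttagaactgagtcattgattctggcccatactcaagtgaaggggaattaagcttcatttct
LTR14B, chr9:22230892-22231091, plus strand: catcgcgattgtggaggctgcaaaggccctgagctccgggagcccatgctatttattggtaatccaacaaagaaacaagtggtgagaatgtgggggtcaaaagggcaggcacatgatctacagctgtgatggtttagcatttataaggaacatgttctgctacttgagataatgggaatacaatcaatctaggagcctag
MLT1F, chr18:77977785-77977984, minus strand: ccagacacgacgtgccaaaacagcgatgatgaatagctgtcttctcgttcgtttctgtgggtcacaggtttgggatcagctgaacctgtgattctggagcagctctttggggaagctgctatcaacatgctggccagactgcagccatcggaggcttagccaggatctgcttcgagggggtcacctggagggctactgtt
MER52C, chr1:246147930-246148129, minus strand: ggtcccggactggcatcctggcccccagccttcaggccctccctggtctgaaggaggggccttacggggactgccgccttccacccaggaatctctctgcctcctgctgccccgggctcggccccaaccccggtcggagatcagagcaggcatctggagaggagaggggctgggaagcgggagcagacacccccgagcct
LTR86C, chr1:235479584-235479783, minus strand: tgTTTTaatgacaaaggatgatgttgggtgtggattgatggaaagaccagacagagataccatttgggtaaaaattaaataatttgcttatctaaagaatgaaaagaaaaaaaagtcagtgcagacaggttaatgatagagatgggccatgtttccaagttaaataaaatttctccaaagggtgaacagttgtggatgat
The motif TTTT, searched on the strand of the read alone, is present in the middle 200 bases of 136310 of the 212767 antisense LTR elements of at least that length, or 64.1%. It is present in the LTR86C window and in none of the other 4.

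The libraries held 16683132 to 25686948 aligned fragments, of which 86707 to 344631 were antisense LTR counts. Counts per element were low, with a mean of 2.16 to 3.99 per listed element, and 1105 to 2555 elements per library reached 10 counts. Reads on the wrong strand of a single abundant 7SL RNA copy, a measure of strand leak, were 0.0221% to 0.0757% of the reads of that copy. Z18truncZnFmut replicate 3 stood apart. It listed 159652 antisense LTR elements against 22948 to 61737 in the other libraries, and 54.3% of its antisense counts lay in elements with no reads on the other strand, against 75.1% to 85.3%. Where a result changed with it, values without it or for each library are given. Z18trunc replicate 3 was the library nearest to it.

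The level of antisense LTR reads lay above Clover with each ZC3H18 construct. In counts per 1000000 aligned fragments (CPM), the Clover libraries held 5610, 5069 and 5084. The Z18fl libraries held 6309, 6190 and 6462, the Z18trunc libraries 6082, 6459 and 7336, and the Z18truncZnFmut libraries 5986, 6327 and 14231. No ZC3H18 library fell within the Clover range. The means were 5254 ± 308 (SD, n = 3) for Clover, 6320 ± 137 for Z18fl, 6626 ± 643 for Z18trunc and 8848 ± 4660 for Z18truncZnFmut. Each difference from Clover had p = 0.1 in a two-sided exact permutation test, the smallest that 3 against 3 libraries allow, and 0.233 after Benjamini-Hochberg adjustment over the 70 single-value tests. The Z18truncZnFmut excess over Clover was 3590 CPM, and 902 CPM without replicate 3. Cultures were pooled cells, so more RNA bound per molecule, more of the RNA in the cell and a larger share of transfected cells cannot be told apart.

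Antisense reads made up a slightly larger part of all LTR reads with Z18fl and Z18trunc. Their share of LTR counts was 44.71%, 44.34% and 43.37% in the Clover libraries. It was 46.23%, 45.51% and 45.69% with Z18fl, 45.08%, 45.74% and 47.25% with Z18trunc, and 43.59%, 44.52% and 47.64% with Z18truncZnFmut. The Z18fl and Z18trunc libraries were all above the Clover libraries, by 1.67 and 1.88 percentage points on average (exact permutation p = 0.1 for each). The Z18truncZnFmut libraries overlapped Clover (difference 1.11, exact permutation p = 0.5), and without replicate 3 the difference was -0.0838.

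**Figure D1:**
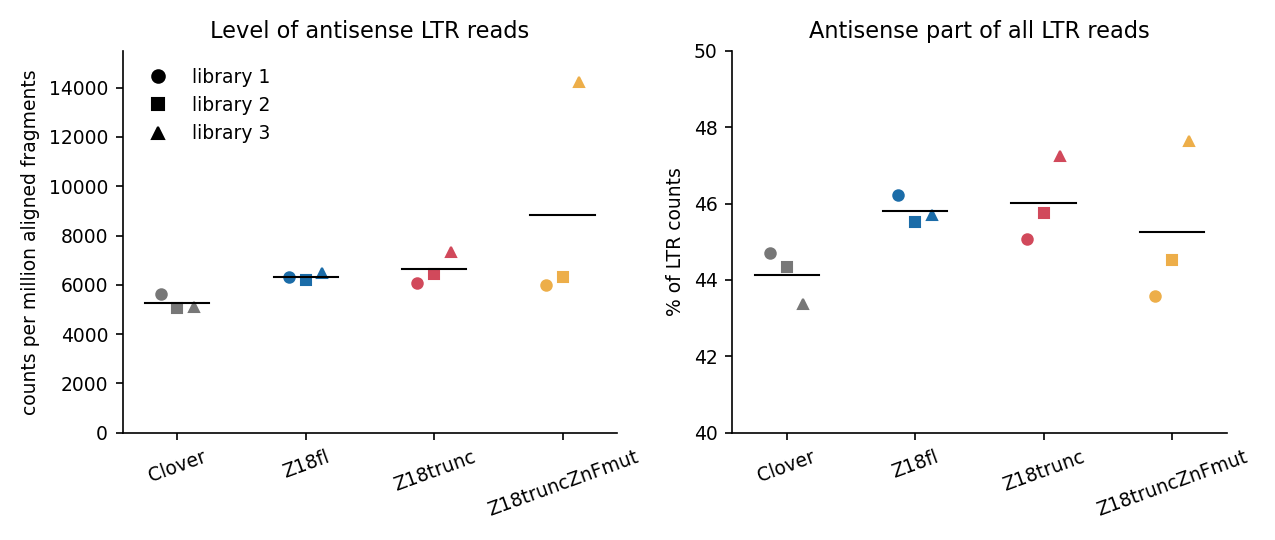
Left, antisense LTR counts in CPM in each of the 12 libraries. Right, antisense counts as a percentage of all LTR counts (axis from 40% to 50%), with horizontal bars at the means of 3 libraries. All 9 ZC3H18 libraries lie above the Clover libraries in level, and Z18truncZnFmut replicate 3 stands apart at 14231.

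Relative to the other repeat classes read in antisense, LTR elements took a slightly smaller share. With each construct this difference shrank or turned when a few LTR elements alone were left out. LTR elements took 20.34% ± 0.245 of antisense counts over the 6 repeat classes in Clover, 19.58% ± 0.222 with Z18fl, 19.43% ± 0.0842 with Z18trunc and 19.48% ± 0.230 with Z18truncZnFmut. All 9 ZC3H18 libraries lay below the Clover range, and each construct had an exact permutation p of 0.1. Without the 10 elements with the most counts, the Z18fl difference turned from -0.759 to 0.404 percentage points and the Z18truncZnFmut difference from -0.853 to 0.0161. Here and below these 10 are antisense LTR elements, and the other repeat classes and the sense reads kept all of their elements. The Z18trunc difference went from -0.905 to -0.165 (exact permutation p = 0.3). The log2 ratio of antisense LTR to antisense L1 counts was 0.52 ± 0.0944 in Clover and 0.46 ± 0.0321 with Z18fl, and the libraries overlapped (exact permutation p = 0.4). Against antisense L2, MIR and DNA elements, which are older repeats, the log2 ratio was -0.40 ± 0.0203 in Clover, -0.56 ± 0.0341 with Z18fl and -0.48 ± 0.0141 with Z18trunc, without overlap between any 2 of these groups (exact permutation p = 0.1 for each). Without the 10 elements with the most counts, the Z18fl difference from Clover went from -0.161 to -0.0542 (exact permutation p = 0.1). The Z18trunc difference went from -0.0767 to -0.0108 (exact permutation p = 0.4).

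By family, ERV1 took a larger share of the antisense LTR reads with every ZC3H18 construct than with Clover, and the smaller ERVK share with Z18fl rested on a few elements. ERV1 took 22.32% ± 0.646 of antisense LTR counts in Clover, 26.08% ± 0.803 with Z18fl, 25.35% ± 0.976 with Z18trunc and 25.60% ± 1.03 with Z18truncZnFmut. All 9 ZC3H18 libraries lay above the 3 Clover libraries (exact permutation p = 0.1 for each construct), and without the 10 elements with the most counts the excess over Clover was 2.16 percentage points with Z18fl. In level, ERV1 held 1278, 1146 and 1097 CPM in Clover and 1703, 1577 and 1666 CPM with Z18fl, without overlap. The antisense part of all ERV1 reads was 24.18% in Clover and 32.47% with Z18fl, far below that of the other large families, which ranged from 51.12% to 66.37% over these 2 groups. ERVK took 10.40% ± 0.777 in Clover and 6.908% ± 1.16 with Z18fl, a difference of -3.50 percentage points that came to -0.18 without the 10 elements with the most counts. ERVL took 23.14% ± 0.129 and 23.93% ± 0.401, and ERVL-MaLR, the largest family, 40.75% ± 0.17 and 40.96% ± 0.28. Without those 10 elements the ERVL-MaLR difference turned to -2.43 percentage points. The antisense part of ERVL-MaLR reads was 55.16% in Clover and 51.12% with Z18fl, so it lay lower while ERV1 lay higher. That of Gypsy reads was 78.19% and 64.80%, a difference that rested on a single MamGypLTR1b element in an exon of COTL1. This element held 111.9 of 145.8 antisense Gypsy CPM in Clover and 53.09 of 95.96 CPM with Z18fl.

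Most antisense LTR reads lay inside genes on the strand of the gene in every library except Z18truncZnFmut replicate 3, where 43.01% were intronic and 6.933% exonic. Each element was placed by the gene annotation on the strand of the read, as exonic where at least 50% of it lay in exons, and as intronic where its middle lay elsewhere in a gene. Of the 256504 elements, 102664 (40%) were intronic, 113805 (44.4%) lay in no gene, 35761 (13.9%) lay opposite to a gene and 4274 (1.67%) were exonic. The few exonic elements took 21.33% ± 1.05 of the antisense counts in Clover. Intronic elements took 52.31% ± 0.292 in Clover, against 26.04% ± 0.474 of the reads on the strand of the element. By this rule the most read element, a MER11B element that overlaps the 7SL pseudogene RN7SL4P, counts as intronic, with a mean of 298.7 CPM in Clover and 134.8 CPM with Z18fl.

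With Z18fl a larger part of the reads lay in introns than with Clover, and with all 3 ZC3H18 constructs a smaller part lay in exons. The intronic share was 51.98%, 52.43% and 52.53% in Clover and 60.31%, 59.72% and 60.41% with Z18fl. The exonic share was 20.48%, 21.01% and 22.50% in Clover and 14.89%, 15.17% and 14.59% with Z18fl. Neither pair of groups overlapped, with differences of 7.84 and -6.45 percentage points, and 8.38 and -4.77 without the 10 elements with the most counts. In introns Z18trunc lay between, at 57.51%, 58.82% and 54.75%, with all 3 libraries above every Clover and below every Z18fl library. Z18truncZnFmut had 56.46%, 56.68% and 43.01%, so that replicates 1 and 2 lay above Clover and replicate 3 below. The exonic share lay below every Clover library with Z18trunc (17.35%, 16.19% and 13.0%) and with Z18truncZnFmut (17.99%, 15.44% and 6.933%). These exonic differences were -5.82 and -7.88 percentage points, and without replicate 3 that of Z18truncZnFmut was -4.62. Each non-overlapping pair had an exact permutation p of 0.1. Without replicate 3 the intronic difference of Z18truncZnFmut from Clover was 4.25 in place of -0.264 percentage points. Reads outside genes took 21.94% ± 0.81 in Clover, 20.68% ± 0.112 with Z18fl, 22.61% ± 2.99 with Z18trunc and 27.58% ± 9.53 with Z18truncZnFmut, whose libraries stood at 21.14%, 23.06% and 38.53%. Intronic reads on the strand of the element also took a larger share with Z18fl, 36.68% ± 0.613.

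**Figure D2:**
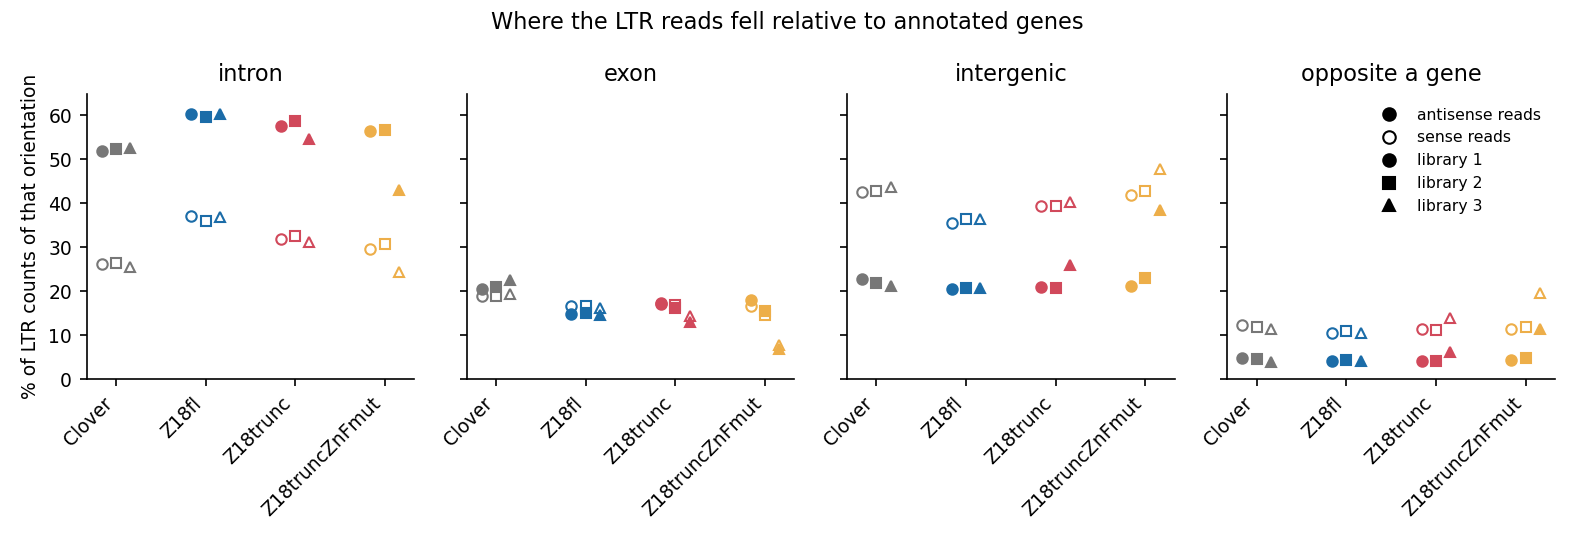
Share of the antisense (filled) and sense (open) LTR counts in each gene context on the strand of the read, in percent, with a point for each of the 12 libraries. The antisense points of Z18fl lie near 60% intronic and 15% exonic against 52% and 21% in Clover, and Z18truncZnFmut replicate 3 lies apart in every context.

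Subfamilies were then compared one by one, with the antisense counts of all elements of a subfamily summed. With Z18fl, 67 of 518 antisense LTR subfamilies rose against Clover and 69 fell at an adjusted p under 0.05 by edgeR's quasi-likelihood test. Among all 1848 subfamily and orientation sums in the fit, 16.2% rose and 15.6% fell, so the antisense LTR subfamilies, at 12.9% and 13.3%, moved no more often than that background. The scaling sets the split. Trimmed-mean (TMM) scaling puts the median antisense LTR subfamily at a log2 fold change of 0.00. Scaling to aligned fragments puts it at 0.43, with 247 of 519 higher and 15 lower. Over all 1853 sums under that scaling, 994 were higher and 66 lower, with the median at 0.44. Fold changes below are therefore relative to the typical repeat. Leaving out Z18fl replicate 1 took the number that rose to 41, and a fit over all 12 libraries, which share 1 estimate of spread with Z18truncZnFmut replicate 3 among them, gave 17 higher and 23 lower.

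HERV9 and its LTR12 repeats, a primate ERV1 group whose LTR is a known promoter, had 5 of 10 tested subfamilies higher and none lower with Z18fl, with a median log2 fold change of 0.31. The old MER4 group had 5 of 13 higher and none lower, and the MER57 group 3 of 11 higher and none lower. Among the remaining ERVL subfamilies 17 of 95 rose and 15 fell, and among the remaining ERV1 LTRs 17 of 153 rose and 11 fell. The THE1 group, abundant primate MaLR elements, had none of 9 higher and 6 lower, with a median of -0.40, and HERVL18 with LTR18 had all 3 lower. ERVK had 5 of 36 higher and 10 lower, MLT1 3 of 51 higher and 9 lower, and MST none of 14 higher and 3 lower. Over all antisense LTR subfamilies 12.9% rose and 13.3% fell, with a median of 0.00, and over all sums in the fit 16.2% rose and 15.6% fell. The remaining ERVL subfamilies lay near the shares over all sums. Most groups have few members, and no group was tested as a set.

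The largest rises with Z18fl among subfamilies with at least 200 mean counts were in LTR46, MER50-int and LTR13. LTR46, an ERV1 LTR, held 4.288, 4.151 and 3.791 CPM in Clover and 11.75, 12.39 and 10.08 CPM with Z18fl, a log2 fold change of 1.05 (SE 0.134, adjusted p = 1.44e-06), and 49.1% of its counts came from 1 element. MER50-int, an ERV1 internal part, held 5.215, 4.209 and 4.244 CPM in Clover and 11.70, 11.97 and 14.11 with Z18fl (log2 fold change 1.04, SE 0.123). LTR13, an ERVK LTR, held 30.15, 22.16 and 24.39 CPM in Clover and 53.79, 51.08 and 54.66 with Z18fl, a log2 fold change of 0.63. In all 3, every Z18fl library lay above every Clover library. The LTR13 call was lost in the fit of all 12 libraries (0.62, adjusted p = 0.135). The largest falls were in MER11B and MamGypLTR1b, and each was nearly a single locus. MER11B, an ERVK LTR, fell by 1.51 on the log2 scale, and 95.1% of its counts came from 1 element on chromosome 3. On uniquely mapped reads the MER11B call was lost, with a log2 fold change of -0.27 (adjusted p = 0.137). MamGypLTR1b fell by 1.46, and 94.9% came from 1 element in COTL1.

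Subfamilies with the most antisense counts moved little. After MER11B these were MSTA, MLT1C, LTR12C, MLT1K, MLT1D, THE1B, MLT1A0, MLT1J and MLT1B, all MaLR elements except LTR12C. LTR12C held 113.5, 118.9 and 100.4 CPM in Clover and 193.1, 169.8 and 177.4 CPM with Z18fl, a log2 fold change of 0.27 (SE 0.0724, adjusted p = 6.20e-03) that came to 0.70 when scaled to aligned fragments. MSTA fell by 0.18 and MLT1A0 by 0.25 with Z18fl after TMM, and both turned positive, 0.25 and 0.18, when scaled to aligned fragments. The other 6 MaLR subfamilies did not pass the test, with log2 fold changes between -0.14 and 0.01.

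The antisense part of a subfamily against its own sense part in the same library depends little on the scaling between libraries. By that measure, 83 of 537 LTR subfamilies moved towards antisense with Z18fl against Clover and 70 towards sense (edgeR, construct by orientation term with library as a block). Over all 961 repeat subfamilies 12.1% moved towards antisense and 20.5% towards sense, and the LTR shares were 15.5% and 13.0%. The median LTR subfamily shifted by 0.11 on the log2 scale towards antisense, and the median over all repeats by -0.03. Scaled to aligned fragments, the counts were 83 and 68 of 536, where those over all 961 repeat subfamilies were 116 and 195. Without Z18fl replicate 1 the number towards antisense was 55.

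MER51A, an ERV1 LTR, moved furthest towards antisense among subfamilies with at least 200 mean counts in both orientations. Antisense reads made up 41.4%, 38.4% and 35.3% of its reads in Clover and 67.0%, 66.6% and 67.6% with Z18fl, with 54.8%, 56.4% and 53.9% for Z18trunc and 54.1%, 49.0% and 50.8% for Z18truncZnFmut. The Z18fl libraries lay above those of the other 3 groups without overlap. Its log2 shift was 1.71 (SE 0.117, adjusted p = 2.92e-07) for Z18fl and 0.98 (SE 0.141, adjusted p = 2.27e-03) for Z18trunc, and the 2 constructs differed by -0.73 (SE 0.104, adjusted p = 1.46e-02). HERV9N-int went from 38.7%, 37.0% and 36.9% antisense in Clover to 61.4%, 58.8% and 59.7% with Z18fl, a shift of 1.32 (adjusted p = 1.18e-05), with 45.3% of its counts in 1 element. LTR12D went from 7.0%, 7.32% and 6.30% to 15.3%, 15.8% and 15% (shift 1.30, adjusted p = 5.73e-06). In the HERV9 and LTR12 group as a whole, 7 of 10 subfamilies moved towards antisense with Z18fl and none towards sense, and the antisense part was 15% ± 1.31 in Clover, 23.77% ± 1.22 with Z18fl, 18.98% ± 1.90 with Z18trunc and 20.47% ± 4.40 with Z18truncZnFmut, whose libraries stood at 17.48%, 18.41% and 25.52%.

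The internal parts of THE1 moved towards sense. Antisense reads made up 59.1%, 58.6% and 62.8% of THE1C-int reads in Clover and 31.9%, 34.3% and 33.5% with Z18fl, with 41.9%, 43.4% and 42.3% for Z18trunc and 43.3%, 47.9% and 52.1% for Z18truncZnFmut. The 4 groups did not overlap, apart from Z18truncZnFmut with Z18trunc at their edge values of 43.3% and 43.4%. The log2 shift was -1.60 (SE 0.101, adjusted p = 1.65e-07) for Z18fl and -1.03 (adjusted p = 6.69e-04) for Z18trunc, and the 2 constructs differed by 0.57 (adjusted p = 2.67e-02). THE1C-int antisense reads stood at 34.17, 31.44 and 31.72 CPM in Clover and 30.75, 31.31 and 33.07 CPM with Z18fl, with overlap, while its sense reads stood at 23.62, 22.19 and 18.79 and at 65.63, 59.85 and 65.52 CPM. After TMM its antisense reads fell by 0.46 with Z18fl (adjusted p = 1.90e-05), and scaling to aligned fragments gave -0.03. THE1A-int went from 66.95% to 42.51% antisense (shift -1.45, adjusted p = 8.71e-08) and THE1B-int from 53.25% to 30.73%. HERVL18-int, an ERVL internal part, went from 73.20% to 45.76% with Z18fl and to 62.84% with Z18trunc (shifts -1.70 and -0.70, adjusted p = 4.77e-06 and 3.64e-02). HERV3-int went from 58.88% to 35.04% with Z18fl (shift -1.42, adjusted p = 3.67e-05).

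**Figure D3:**
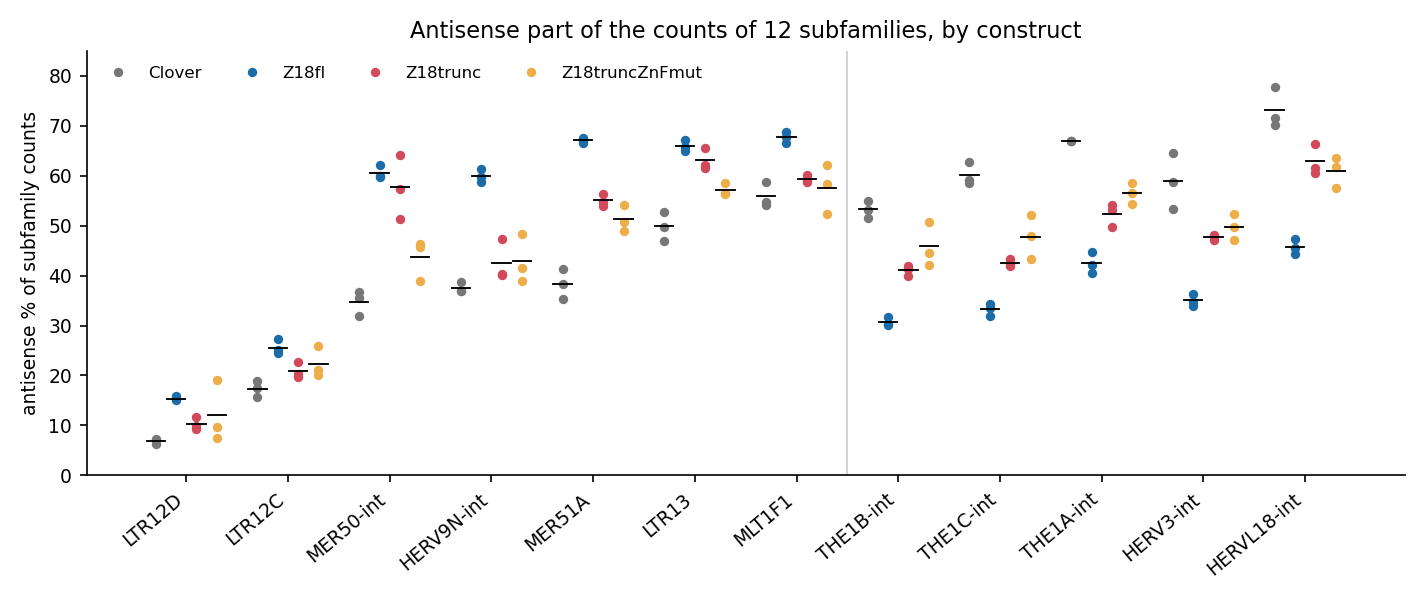
Antisense reads as a percentage of all reads of a subfamily, for 12 named LTR subfamilies and each library of the 4 groups, with horizontal bars at the means of 3 libraries. In these 12 subfamilies the Z18fl mean lies furthest from the Clover mean, above it in MER51A, HERV9N-int and LTR12D and below it in THE1C-int, THE1A-int and HERVL18-int, and in LTR12D Z18truncZnFmut replicate 3 lies above the Z18fl points.

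With Z18trunc fewer subfamilies passed. Of 516 antisense LTR subfamilies 21 rose and 33 fell against Clover, or 4.07% and 6.40%, where 9.02% of all sums rose and 7.72% fell. Scaled to aligned fragments, 203 of 520 were higher and 4 lower, with the median at 0.47. Over all 1857 sums under that scaling, 814 were higher and 13 lower, with the median at 0.49. The number that rose was 12, 7 and 10 without Clover replicates 1, 2 and 3 and 6 without Z18trunc replicate 2, and the number that fell was 18 without Clover replicate 3. MER50-int, MER57E3 and MER31B, all of ERV1, rose by 0.77, 0.69 and 0.57 on the log2 scale (adjusted p = 2.26e-03, 6.83e-03 and 3.11e-02). MER57E3 held 3.857, 5.028 and 4.073 CPM in Clover and 8.298, 9.340 and 11.55 with Z18trunc. MER31B held 5.515, 8.068 and 4.753 CPM and 10.68, 12.32 and 15.04 CPM in the same groups, so that neither subfamily overlapped. The MER57E3 and MER31B calls were lost in the fit of all 12 libraries (adjusted p = 0.217 and 0.113). The MER31B call was also lost on uniquely mapped reads (adjusted p = 0.206) and without Clover replicate 1 or 3 or Z18trunc replicate 2 (0.157, 0.186 and 0.0695). Against their own sense part, 27 of 538 subfamilies moved towards antisense and 22 towards sense, where 4.15% and 8.93% of all repeat subfamilies did. The first count was 14, 10 and 10 without Clover replicate 2, Clover replicate 3 and Z18trunc replicate 2, and the second 12, 13, 7 and 8 without Clover replicates 1, 2 and 3 and Z18trunc replicate 2. HERVH-int, the internal part of an ERV1 provirus abundant in pluripotent cells, had 2.93%, 2.53% and 2.18% antisense reads in Clover and 4.11%, 4.23% and 8.19% with Z18trunc, a shift of 1.09 (adjusted p = 1.57e-02). The shift was 0.743 without Z18trunc replicate 3, and the adjusted p was 0.0757 and 0.0598 without Clover replicates 2 and 3. With Z18fl its antisense part was 7.01%, 4.27% and 4.81%, a shift of 1.10 (adjusted p = 1.64e-04). HERV9-int went from 16.68% in Clover to 25.75% with Z18trunc and 32.49% with Z18fl (shifts 0.795 and 1.26, adjusted p = 3.10e-02 and 7.91e-05). LTR78, a further ERV1 LTR, moved the other way, from 57.97% in Clover to 45.46% with Z18trunc (shift -0.73, adjusted p = 1.34e-02) and 46.08% with Z18fl (shift -0.69, adjusted p = 1.39e-03). The Z18trunc call for HERV9-int was lost on uniquely mapped reads (adjusted p = 0.0683). It was also lost without Clover replicate 1, 2 or 3 or Z18trunc replicate 2 (0.073, 0.055, 0.112 and 0.0809). That for LTR78 was lost without Clover replicate 2 or 3 or Z18trunc replicate 2 (0.0584, 0.0531 and 0.0658).

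With Z18truncZnFmut no antisense LTR subfamily passed against Clover. Of 513 tested, edgeR called 0 higher and 0 lower, with 21 and 24 at an unadjusted p under 0.05, and DESeq2 called 0 higher and 1 lower. Over all sums 0.108% were higher and 0.00% lower. Without Z18truncZnFmut replicate 3, 6 were higher and 18 lower, so the count rests on that library. For the antisense against the sense part the counts were 0 and 0 of 540 with all libraries (32 and 19 unadjusted, background 0.103% and 0.00%), and 2 and 8 without replicate 3.

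Direct comparison of the constructs found few differing subfamilies. Between Z18trunc and Z18fl, 0 of 534 antisense LTR subfamilies were higher and 4 lower, where 0.210% and 1.21% of all sums were (29 and 42 unadjusted, 2 and 6 by DESeq2). Without Z18trunc replicate 3 the counts were 19 and 21, and 0 were lower without Z18fl replicate 1 or 2 and 1 without Z18fl replicate 3. MLT1F1 was among the 4 and was lower with Z18trunc by 0.49 on the log2 scale (adjusted p = 7.78e-03), at 46.15, 45.50 and 43.57 CPM with Z18fl and 31.97, 31.86 and 35.61 CPM with Z18trunc, and 32.2% of its counts came from the NOLC1 element described next. LTR52 was lower by 0.45 (adjusted p = 2.20e-02), with 67.6% of its counts in 1 element. Relative to the sense part, 7 of 545 subfamilies were shifted towards antisense in Z18trunc and 5 towards sense, against a background of 0.819% and 0.614%, and these counts were 21 and 17 when Z18trunc replicate 3 was left out and 5 and 2 when replicate 1 was. They were 0 and 0 when any one of the Z18fl libraries or Z18trunc replicate 2 was left out. The differences between Z18trunc and Z18fl given above for MER51A and THE1C-int are among those 12. Between Z18truncZnFmut and Z18trunc, none of 539 antisense LTR subfamilies and none of 549 by the sense comparison passed by edgeR, with 0.00% of all features called in either direction of either test. At an unadjusted p under 0.05, 6 were higher and 12 lower in the first test and 4 and 19 in the second, and DESeq2 called 0 and 0 in the first.

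Single elements had the depth for a test in 1416 cases for Z18fl against Clover. Of these antisense LTR loci 244 rose and 313 fell, or 17.2% and 22.1%, where 25.9% of all 18481 loci and orientations rose and 21.5% fell. Scaled to aligned fragments, 347 of 1452 were higher and 192 lower, where 6199 and 2601 of all 19014 loci and orientations were. The number that fell was 172, 187 and 180 without Z18fl replicates 1, 2 and 3. Loci with low counts were left out of the test, so these are not all the elements with antisense reads. Of 746 intronic loci 158 rose and 115 fell, with a median log2 fold change of 0.20, and of 335 exonic loci 43 rose and 122 fell, with a median of -0.54. Of 303 loci outside genes 33 rose and 74 fell, and of 32 loci opposite to a gene 10 rose and 2 fell.

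With Z18trunc, 103 of 1427 antisense LTR loci rose and 135 fell against Clover (background 18.7% and 8.84% of all loci), or 7.22% and 9.46%. Of 741 intronic loci 73 rose and 50 fell (9.85% and 6.75%), and of 334 exonic loci 8 rose and 63 fell (2.4% and 18.9%). Scaled to aligned fragments, 177 of 1448 were higher and 59 lower, where 4853 and 730 of all 19556 were. Without Z18trunc replicate 3, 68 rose, and the number that fell was 70 and 57 without Z18trunc replicates 1 and 2. With Z18truncZnFmut, 16 of 1182 rose and 35 fell (background 8.58% and 2.70%), with 13 and 9 of 587 intronic loci and 1 and 20 of 291 exonic loci. Scaled to aligned fragments, 42 of 1317 were higher and 14 lower, where 2014 and 175 of all 16955 were. With TMM, 10 rose without Z18truncZnFmut replicate 2. The number that fell was 17 and 21 without Clover replicates 1 and 3, and 20, 23 and 16 without Z18truncZnFmut replicates 1, 2 and 3. Z18trunc against Z18fl had 20 of 2081 higher and 58 lower (background 2.12% and 2.57%). Scaled to aligned fragments these were 23 and 37 of 2024, where 601 and 501 of all 27169 were. With TMM, 35 of 1185 intronic loci were lower (2.95%, against 2.79% of all antisense LTR loci). Without Z18fl replicates 1 and 2 or Z18trunc replicates 1 and 2 in turn, the number higher was 9, 11, 7 and 9 and the number lower 19, 18, 19 and 21. Z18truncZnFmut against Z18trunc had 2 of 1777 higher and 2 lower (background 0.213% and 0.197%), with 129 and 67 at an unadjusted p under 0.05, and 1 higher and 0 lower with the replicate number as a block.

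**Figure D4:**
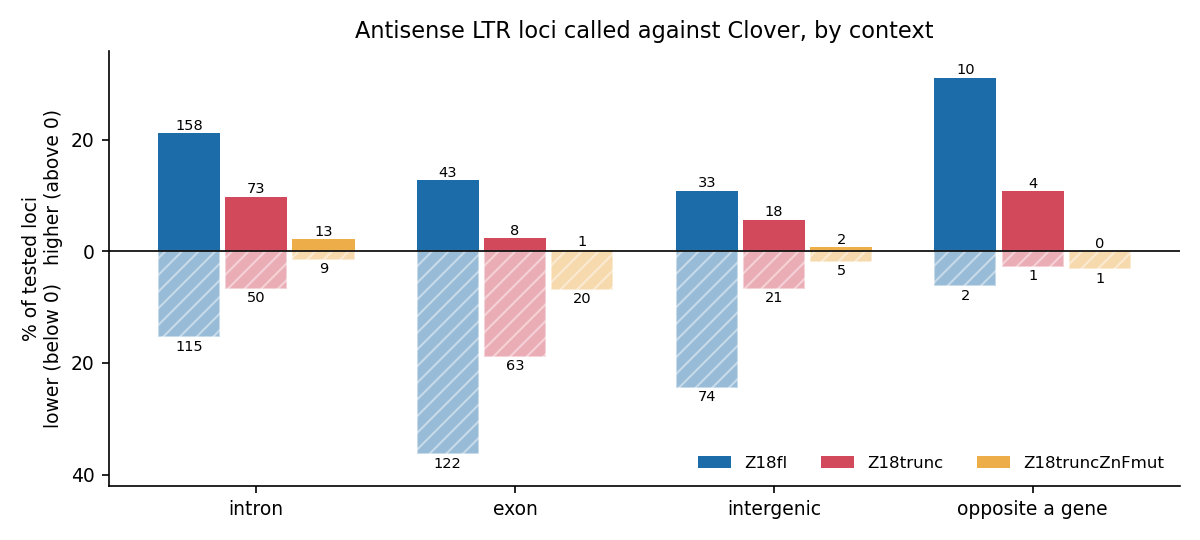
Percentage of the tested antisense LTR loci higher (bars above 0) and lower (hatched bars below 0) than in Clover at an adjusted p under 0.05 (edgeR) for each ZC3H18 construct, split by gene context on the strand of the read, with the number of loci at each bar. Intronic loci make up 158 of the 244 rises with Z18fl and exonic loci 122 of the 313 falls.

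At an intronic MLT1F1 element in NOLC1, reads were highest with Z18fl and next highest with Z18trunc. NOLC1 encodes a nucleolar phosphoprotein, and the MaLR element lies at chr10:102159577-102159878 against the strand of the gene. It held 5.754, 4.736 and 5.545 CPM in Clover, 21.90, 22.84 and 22.31 with Z18fl, 9.421, 9.504 and 8.872 with Z18trunc, and 8.440, 7.611 and 5.616 with Z18truncZnFmut. The Z18fl libraries lay above all others, the Z18trunc libraries above those of Clover and the mutant, and the mutant overlapped Clover. The log2 fold change against Clover was 1.84 (SE 0.127, adjusted p = 2.06e-08) for Z18fl and 0.59 (SE 0.146, adjusted p = 4.26e-03) for Z18trunc, and Z18trunc was 1.33 below Z18fl (adjusted p = 8.28e-06). Z18truncZnFmut against Z18trunc stood at -0.21 (SE 0.171, adjusted p = 0.642) and did not pass. Reads on the strand of the element were 0 in each of the 4 groups, and 57.1% to 66.6% of the antisense reads were uniquely mapped.

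The loci named here other than the MLT1F, the first LTR86C, the most read elements and the LTR16A1 element have a mean SQuIRE score, the confidence of read assignment, of 70 or more in the higher group, a limit chosen after their values were seen.

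An LTR14B element outside any annotated gene, at chr9:22230786-22231197, rose with all 3 constructs. Its counts were 1, 5 and 7 in Clover, 56, 67.3 and 68 with Z18fl, 47, 65.2 and 41.35 with Z18trunc, and 28, 20.75 and 49 with Z18truncZnFmut. Every ZC3H18 library lay above every Clover library. The log2 fold changes were 3.14 (SE 0.393), 2.84 (SE 0.425) and 2.34 (SE 0.525), with adjusted p of 8.61e-06, 4.27e-05 and 3.68e-03. A MER51A element at chr15:62260898-62261492, over an exon of the unnamed transcript ENSG00000291257, held 0.659, 0.819 and 0.340 CPM in Clover and 5.917, 6.320 and 6.293 with Z18fl. It held 3.070, 4.421 and 2.239 CPM with Z18trunc and 1.489, 2.020 and 1.899 with Z18truncZnFmut, so that the 4 groups stood in order without overlap. Z18trunc was 0.99 below Z18fl on the log2 scale (adjusted p = 5.83e-03). Z18truncZnFmut against Z18trunc stood at -0.68 (SE 0.256, adjusted p = 0.24) and did not pass.

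A MER52C element in an intron of SMYD3, a lysine methyltransferase gene, at chr1:246147462-246148598 held 4, 3 and 8 counts in Clover and 67, 38 and 55 with Z18fl. Z18trunc had 31, 18 and 10 counts and Z18truncZnFmut 14, 9 and 14. The rise with Z18fl was 2.69 on the log2 scale (adjusted p = 4.25e-05), and Z18trunc lay 1.49 below Z18fl (adjusted p = 9.11e-03). The call between Z18trunc and Z18fl was lost without Z18fl replicate 1 (-1.26, adjusted p = 0.0632). An MLT1F element in an intron of the long noncoding RNA LINC01029, chr18:77977767-77978003, rose with Z18fl and Z18trunc, from 1.858, 1.695 and 1.980 CPM to 4.535, 5.274 and 4.741 and to 5.257, 4.132 and 4.605 (log2 fold changes 1.17 and 1.14, adjusted p = 1.68e-04 and 3.42e-04). Z18trunc and Z18fl differed there by -0.11 (SE 0.169).

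A THE1C element in LINC03009, a long noncoding RNA gene, at chr7:76594249-76594617, rose with Z18trunc and Z18fl against Clover. It held 0.599, 0.299 and 0.191 CPM in Clover, 1.215, 1.503 and 1.178 with Z18fl, 2.888, 1.662 and 2.403 with Z18trunc, and 0.917, 0.519 and 0.791 with Z18truncZnFmut. The log2 fold changes were 2.51 (SE 0.4, adjusted p = 8.49e-05) for Z18trunc and 1.64 (adjusted p = 4.51e-03) for Z18fl. Z18truncZnFmut stood at -1.49 against Z18trunc (SE 0.308, adjusted p = 3.12e-02), a call that was lost on uniquely mapped reads (-1.39, adjusted p = 8.11e-02), by DESeq2, with the replicate block, over every repeat class and without Z18trunc replicate 1 or 3 or Z18truncZnFmut replicate 3, where 0 loci were lower. In the Z18trunc and Z18truncZnFmut groups 45.8% of its reads were uniquely mapped.

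An LTR12C element in an intron of ARID4B, a chromatin regulator gene, at chr1:235140104-235141979, rose with Z18fl and Z18truncZnFmut. It held 2.098, 1.228 and 1.188 CPM in Clover, 4.166, 3.225 and 3.737 with Z18fl, 3.238, 2.149 and 2.239 with Z18trunc, and 3.641, 3.054 and 2.868 with Z18truncZnFmut. Every library of the ZC3H18 constructs lay above the Clover libraries. The log2 fold changes were 1.08 (adjusted p = 1.62e-03) with Z18fl and 0.98 (adjusted p = 1.83e-02) with Z18truncZnFmut, and Z18trunc stood at 0.56 (adjusted p = 0.146). The Z18truncZnFmut call was lost without Clover replicate 2 or 3 (adjusted p = 0.121 and 0.155) and without a filter (0.301).

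**Figure D5:**
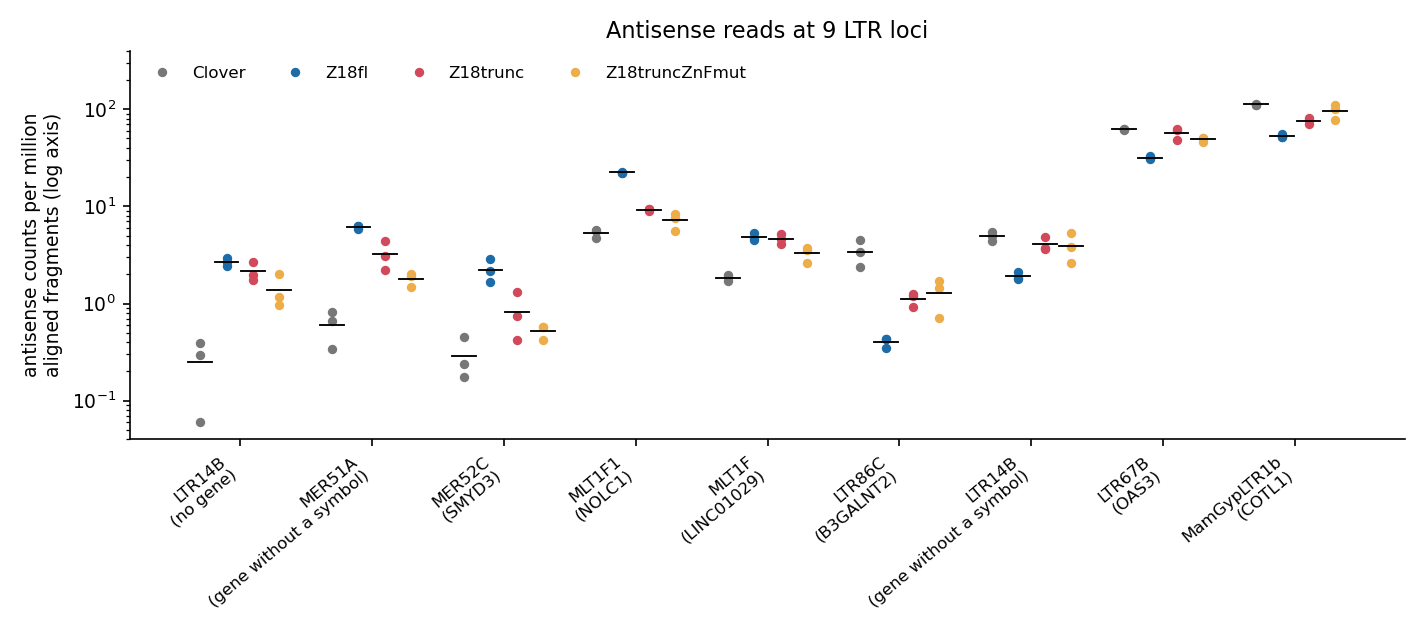
Antisense counts in CPM at 9 named LTR loci, for each of the 12 libraries on a log axis, with horizontal bars at the means of 3 libraries. The means of the MLT1F1 element in NOLC1 and the MER51A element on chromosome 15 step down from Z18fl to Z18trunc to Z18truncZnFmut. The step from Z18trunc to Z18truncZnFmut passed the test at neither element. The LTR86C element in B3GALNT2 is lowest with Z18fl.

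Falls with all 3 constructs were seen at a pair of neighbouring LTR86C elements in B3GALNT2, a glycosyltransferase gene, over an exon of a transcript with no defined coding sequence. The element at chr1:235479577-235479791 held 75.2, 58 and 42 counts in Clover, 10, 8 and 11 with Z18fl, 22, 30 and 28 with Z18trunc, and 35, 36 and 17 with Z18truncZnFmut. No ZC3H18 library reached the Clover range. The log2 fold changes were -3.29 (SE 0.309), -1.81 (SE 0.271) and -1.53 (SE 0.309), and Z18trunc lay 1.41 above Z18fl (adjusted p = 2.10e-02). The element at chr1:235479274-235479532 went the same way, from 4.859 ± 0.856 CPM to 0.854 ± 0.24, 1.841 ± 0.131 and 1.717 ± 0.365. An LTR16A1 element in the untranslated part of an exon of CRTAP, a collagen-modifying protein gene, at chr3:33144379-33144469, also fell with all 3. It held 11.21, 11.14 and 8.035 CPM in Clover, 5.182, 4.047 and 3.426 with Z18fl, 5.468, 4.175 and 5.929 with Z18trunc, and 6.393, 7.398 and 5.244 with Z18truncZnFmut, without overlap with Clover. The log2 fold changes were -1.49, -1.16 and -0.78 (adjusted p = 6.92e-06, 5.65e-05 and 7.28e-03). The Z18truncZnFmut call was lost with antisense features alone (adjusted p = 0.123), without a filter (0.455) and without Z18truncZnFmut replicate 1 (0.0504). An intronic LTR14B element on chromosome 19, chr19:57903856-57904466, fell with Z18fl from 4.946 ± 0.499 to 1.899 ± 0.168 CPM (log2 fold change -1.61, adjusted p = 7.08e-06) and was at 4.091 ± 0.647 with Z18trunc, 1.05 above Z18fl (adjusted p = 4.77e-03).

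The 5 antisense LTR loci with the most reads lay over exons of genes or over an RNA pseudogene. The first, the MER11B element at chr3:15738159-15739435, overlaps RN7SL4P, a 7SL RNA pseudogene. It held 303.3, 262.4 and 330.4 CPM in Clover, 42.99, 169.4 and 192.1 with Z18fl, 206.8, 289.4 and 278.6 with Z18trunc, and 274.8, 105.2 and 572.9 with Z18truncZnFmut. Between 0.689% and 1.17% of its reads were uniquely mapped, so its level rests on how the reads of near-identical copies were shared out. It fell by 1.38 with Z18fl (adjusted p = 1.61e-03), which came to -0.60 (adjusted p = 5.56e-02) on uniquely mapped reads. The other 4 lay in exons with untranslated parts. The MamGypLTR1b element in COTL1, an actin-binding protein gene, held 110.6, 111.4 and 113.7 CPM in Clover, 52.08, 55.48 and 51.70 with Z18fl, 77.05, 81.65 and 70.21 with Z18trunc, and 99.50, 111.0 and 77.67 with Z18truncZnFmut. It fell by 1.30 with Z18fl and by 0.76 with Z18trunc (adjusted p = 2.53e-08 and 1.44e-06). The LTR67B element in OAS3, an interferon-induced 2′-5′ oligoadenylate synthetase gene, fell by 1.20 with Z18fl, from 63.00, 60.51 and 62.35 CPM to 31.27, 32.95 and 30.64, and Z18trunc lay 0.80 above Z18fl (adjusted p = 4.85e-04). The MER77 element in PVR fell by 1.01 and the THE1A-int element in MCFD2 by 0.63 with Z18fl. An LTR16A element in the neighbouring OAS1 gene passed the test between Z18trunc and Z18fl, at 2.271, 2.025 and 2.155 against 0.993, 0.915 and 0.857 CPM (log2 difference 1.17, adjusted p = 8.61e-03). That call was lost in the fit of all 12 libraries (adjusted p = 0.057) and without a filter (0.0759). By host gene, RN7SL4P, COTL1, PVR, MCFD2 and OAS3 held the most antisense LTR reads of 16424 genes.

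The AT content of the elements, weighted by their antisense counts, was 52.3% ± 0.195 in Clover, 52.4% ± 0.122 with Z18fl, 52.7% ± 0.289 with Z18trunc and 53.1% ± 1.34 with Z18truncZnFmut, and no construct stood clear of Clover (exact permutation p = 0.6, 0.2 and 0.4). The T content on the strand of the read was 25.75% ± 0.0605 in Clover and 25.77% ± 0.0532 with Z18fl. Elements read in antisense were older than those read in sense, with 188.7 ± 0.82 against 159.3 ± 2.27 differences from the consensus per kilobase in Clover, and 191.2 ± 0.873 against 164.4 ± 0.745 with Z18fl. Intronic antisense elements had 179.9 ± 1.32 in Clover and 187.2 ± 1.39 with Z18fl. Internal parts took 18.63% ± 0.0172 of the antisense LTR counts in Clover and 17.98% ± 0.167 with Z18fl, without overlap (exact permutation p = 0.1). Uniquely mapped reads made up 65.70% ± 3.33 in Clover and 73.07% ± 1.52 with Z18fl, also without overlap.

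The study followed the sense RNA of a MER4-int stretch on chromosome 14 and a HERVK3-int element on chromosome 16, and antisense reads there were few. The MER4-int stretch had antisense counts of 0 in the 3 Clover libraries, which allows up to 3 counts, and sums of 6, 13 and 9 with Z18fl, Z18trunc and Z18truncZnFmut, against 9, 19, 28 and 30 on its own strand. The HERVK3-int element had antisense sums of 2, 0, 1 and 8, the 8 all from Z18truncZnFmut replicate 3, against 29, 43, 30 and 32 on its own strand. By library, the MER4-int antisense counts were 3, 1 and 2 with Z18fl, 4, 2 and 7 with Z18trunc and 1, 1 and 7 with Z18truncZnFmut. These counts are low, and differences between the groups were not tested at either locus.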

How the data were processed

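The PAR-CLIP libraries were grouped by construct from the labels, 3 per group. Per the labels and the study's methods, the authors trimmed reads with cutadapt 4.6, mapped them to hg38 and counted them per repeat element and read strand with SQuIRE (version not given in the sources used here). The deposited tables hold, for each element, the count of uniquely mapped reads, an expected count to which multimapping reads were added by expectation maximization, and the SQuIRE score, a confidence in percent. The expected counts follow the sharing-out of multimapping reads, so levels of near-identical elements are uncertain. The tables also hold the authors' FPKM values, not used here. No column of other samples was present (0).

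Expected counts were rounded to whole numbers and tested with edgeR 4.0.16 (R 4.3.3) by quasi-likelihood, with trimmed-mean (TMM) scaling, a filter at 10 counts in the smallest group and 15 in total, and Benjamini-Hochberg adjustment over all features of 6 repeat classes, for 5 comparisons of 2 groups each. Subfamilies were tested as sums, and the antisense against the sense part with library as a block. For single values the test was the exact permutation test, two-sided (scipy 1.17.1). Contexts are from GENCODE release 44 on hg38. Counts have no molecular identifiers, so the limit allowed by a count of 0 covers counting error only. The tests were checked on simulated data. Alternatives were DESeq2 1.42.0, scaling to aligned fragments, no filter, uniquely mapped reads, other sets of features or libraries, a replicate block and leaving out each library.

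The elements and lists were chosen with earlier results of these data known. Named for each ZC3H18 construct against Clover and for Z18trunc against Z18fl were up to 3 subfamilies that rose and 2 that fell most among those called with at least 200 mean counts, the 10 with the most counts, up to 2 loci that rose and 2 that fell most among those called without overlap, with 50 mean counts and, in the group with more reads, a score of 90 or more (70 in a choice added after the values were seen), the 5 loci and 5 host genes with the most reads, and the loci the study followed. The subfamily rule was also applied to the antisense against sense test. A locus that this rule also named is not reported here.

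Same-numbered deviations from the group means correlated at -0.268 to 0.66, over 0.1 in 3 of 18 pairs. These were the 3 pairs of Z18trunc with Z18truncZnFmut (0.487, 0.228 and 0.66), of which replicate 2 did not correlate best with its own number. A pairing of those groups was therefore not shown, and the labels give none. The counts with the replicate number as a block stand beside that comparison.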

Additional observations from a re-analysis of the deposited data

Results flagged for a closer look

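Elements whose repeat class is uncertain (LTR with a question mark) were in no comparison, and their antisense reads lay above the control in 2 groups. Over 1512 such elements, Clover held 12.9, 12 and 12.6 CPM, a mean of 12.5. Z18fl held 18.6, 17.9 and 20 CPM, a mean of 18.8, and Z18trunc held 15.4, 14.7 and 20.6 CPM, a mean of 16.9, with every library above the Clover libraries. Z18truncZnFmut held 12.9, 19.8 and 52.9 CPM, where the highest library was replicate 3. The difference was not tested.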

How the results depend on the processing

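Counts are given as higher and lower, in the order Z18fl, Z18trunc and Z18truncZnFmut against Clover, then Z18trunc against Z18fl, then the mutant against Z18trunc, where a comparison changed by over 1.5 times, and the cause was not tested. DESeq2 gave 41 higher subfamilies with Z18fl, 1 lower with Z18truncZnFmut and 2 higher for Z18trunc against Z18fl, and 193 and 79 lower loci with Z18fl and Z18trunc, 9 and 23 loci with Z18truncZnFmut, 13 and 26 for Z18trunc against Z18fl and 5 and 0 for the mutant against Z18trunc. A fit of all 12 libraries gave 17 and 23, 5 and 5, and 2 and 3 subfamilies, 0 lower for Z18trunc against Z18fl, and 214 lower loci with Z18trunc, 65 and 94 with Z18truncZnFmut and 6 and 16 for Z18trunc against Z18fl. With antisense features alone, 185, 41 and 2 loci were lower against Clover, 8 higher with Z18truncZnFmut, 37 lower for Z18trunc against Z18fl and 1 higher for the mutant against Z18trunc. With every repeat class the last comparison had 1 and 0 loci. Scaling to aligned fragments gave 247 and 15, and 203 and 4 subfamilies against Clover and 1 and 0 for Z18trunc against Z18fl, with 192 lower, 177 and 59, 42 and 14, 37 lower, and 1 and 4 loci. Without a filter, 1 subfamily was lower with Z18truncZnFmut, and 64, 15 and 3 loci were lower against Clover, 4 and 20 differed between Z18trunc and Z18fl, and 4 were lower with the mutant than with Z18trunc.

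The replicate numbers were not shown to pair the libraries in any comparison, and in 6 of 18 same-numbered pairs the best correlation was with the same number. With the replicate number as a block, 10 subfamilies rose with Z18trunc and 1 was lower for Z18trunc against Z18fl, 10 loci rose with Z18truncZnFmut, and 9 and 26, and 1 and 0 loci differed in the comparisons between constructs. At an unadjusted p under 0.05 there were 61 and 65, 21 and 24, 29 and 42, and 6 and 12 subfamilies, 159 and 237, 74 and 114, 140 and 258, and 129 and 67 loci, and 76 and 49, 32 and 19, 45 and 35, and 4 and 19 subfamilies in the antisense against sense test, from Z18trunc against Clover on.

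Uniquely mapped reads gave 12 higher subfamilies with Z18trunc, 23 lower loci with Z18truncZnFmut, 5 and 0 loci for the mutant against Z18trunc, and 1 subfamily towards sense between Z18trunc and Z18fl. They turned the antisense share (-0.0585 percentage points) and level (-26.4 CPM) of Z18trunc against Z18fl, the ERVL share with Z18fl (-0.183) and Z18trunc (-0.514), the ERVL-MaLR share with Z18fl (-1.11), Z18truncZnFmut (-0.646) and Z18trunc against Z18fl (0.201), and the intronic share with Z18truncZnFmut (0.475), which was 2.33 when any overlap with an exon counted as exonic. Without the 10 elements with the most counts, directions turned for the antisense share (-0.494), ERV1 share (0.00168) and ERVL-MaLR share (0.511) of Z18trunc against Z18fl, the LTR share with Z18fl (0.404) and Z18truncZnFmut (0.0161), the log2 LTR to L1 ratio with Z18fl (0.0466), the ERVL share with Z18trunc (-0.0629), the ERVL-MaLR share with Z18fl (-2.43) and Z18truncZnFmut (-1.68), AT content with Z18fl (-0.0662) and the uniquely mapped share of the mutant against Z18trunc (-0.192).

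Leaving out 1 library at a time, Z18fl had 41 to 63 higher subfamilies, 172 to 343 lower loci and 55 to 77 subfamilies towards antisense. Z18trunc had 6 to 30 and 18 to 49 subfamilies, 68 to 154 and 57 to 155 loci, and 10 to 34 and 7 to 28 by the sense test. Z18truncZnFmut had 0 to 6 and 0 to 18 subfamilies, 10 to 20 and 16 to 28 loci, and 0 to 2 and 0 to 8 by the sense test. Z18trunc against Z18fl had 0 to 19 and 0 to 21 subfamilies, 7 to 23 and 18 to 49 loci, and 0 to 21 and 0 to 17 by the sense test, and the mutant against Z18trunc 1 to 4 and 0 to 2 loci. For Z18truncZnFmut against Clover the ranges were -0.0838 to 1.94 for the antisense share, -2.58 to 4.25 for the intronic share, -0.608 to 0.483 for ERVL, -0.237 to 0.796 for ERVL-MaLR, -0.30 to 2.50 for internal parts and -0.0547 to 0.068 for the log2 ratio to L2, MIR and DNA. For Z18trunc against Z18fl they were -0.401 to 0.685 for the antisense share, -49.9 to 577 CPM, -0.291 to 1.88 for exons and -0.171 to 0.0205 for the log2 ratio to L1. For the mutant against Z18trunc they were -1.97 to 0.0572 for the antisense share, -469 to 3650 CPM, -0.0308 to 0.184 for the LTR share, -0.253 to 0.812 for ERV1, -0.744 to 0.347 for ERVL, -4.33 to 1.20 for exons, -0.299 to 0.951 for AT content, -1.98 to 2.19 for unique mapping and -0.417 to 0.113 for the log2 ratio to L1. Depth limited the locus tests, since most elements held few counts.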
